A study of Mus musculus with 10 samples.

Results

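The transcripts described here encode the machinery that brings newly made proteins to the endoplasmic reticulum (ER), moves them across or into its membrane and removes their signal peptides. The set holds 34 mouse genes out of 48709 genes in the count tables. They were listed by name and by complex, not by a cut on their values, but with earlier results of these data known. The list holds 6 genes of the signal recognition particle (SRP), 2 of its receptor and 6 of the Sec61 channel with Sec62 and Sec63. It also holds 4 of the translocon-associated protein complex (TRAP), 2 TRAM proteins, 6 signal peptidases and 8 subunits of the ER membrane protein complex (EMC). Of the 34 genes, 33 passed the filter on low counts. The remaining gene, Srp54a, was listed at 0 in all 10 libraries.

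Polyadenylated RNA came from cultures of primary hippocampal neurons of the mouse, kept for 10 days in vitro. Cultures were exposed for 6 h to tunicamycin at 2 ug/mL (6 libraries) or for the same time to DMSO (4 libraries). Tunicamycin stops cells from building the sugar chain of N-linked glycoproteins and is used to cause ER stress, and the comparison asks which transcripts change under that stress. The labels name no genetic change in either group, no strain, sex or age of the donor animals, and do not tell whether each library stands for a culture of its own.

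Secreted and membrane proteins usually carry a hydrophobic signal sequence. SRP binds it as it leaves the ribosome, slows translation and hands the ribosome to the SRP receptor in the ER membrane. The chain then enters the Sec61 channel, aided by TRAP and TRAM, while signal peptidase cuts off the signal sequence. EMC inserts membrane segments that Sec61 handles poorly, among them tail anchors and some segments of receptors and channels with many membrane spans. In neurons this route supplies the receptors, channels and adhesion proteins of the cell surface.

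Depth was 21055289 to 29234887 counts per library, and the stress marker Hspa5, the main ER chaperone BiP, averaged 3211 ± 150 CPM (counts scaled to 1000000 per library) in tunicamycin libraries and 613 ± 44.6 CPM in DMSO libraries (SD, n = 6 and n = 4). It was 5.20-fold higher, with an adjusted p of 7.65e-20 by edgeR's quasi-likelihood test. The other 4 stress markers looked at, Ddit3, Herpud1, Xbp1 and Dnajb9, also rose, by 2.44- to 7.65-fold. All 10 neuron markers were detected, and so were astrocyte markers. The summed level of the 10 neuron markers was 6426 to 6765 CPM with tunicamycin and 7623 to 8147 CPM with DMSO, and that of 8 astrocyte markers was 1944 to 2165 CPM with tunicamycin and 2749 to 3102 CPM with DMSO. Of the neuron markers 8 of 10 fell, and of the astrocyte markers 8 of 8. For this and the marker counts below, 31.8% of all 15660 tested genes rose and 32.5% fell (edgeR, adjusted p under 0.05). Summed levels of 6 microglial markers were 11.1 to 13.3 CPM with tunicamycin and 13.9 to 17.9 CPM with DMSO, and 4 of the 6 fell. Of 6 markers of the oligodendrocyte lineage, 1 rose and 3 fell, with sums of 97.5 to 119 CPM against 158 to 202 CPM with DMSO. Endothelial and fibroblast or mural markers summed to 2.15 to 3.17 and 86.2 to 149 CPM with tunicamycin, against 1.15 to 1.74 and 113 to 200.3 CPM with DMSO, and 1 of 3 tested endothelial markers rose while 2 of 6 fibroblast or mural markers fell. Mitochondrial transcripts took 2.97% to 3.41% of counts with tunicamycin and 3.67% to 3.87% with DMSO. No listed marker was at 0 in every library. These are whole cultures, so fewer cells of a type and less RNA per cell cannot be told apart, and the part of cell composition or of RNA quality in the results below was not tested.

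Across the machinery most transcripts were higher with tunicamycin. Of the 33 tested members, 22 rose, 6 fell and 5 did not pass the test (adjusted p under 0.05, edgeR, over all 15660 tested genes). Over all tested genes 31.8% rose and 32.5% fell, 64.3% in all, so most genes moved in one direction or the other, and the members' share of rising genes, 66.7%, stands above that background. The median log2 fold change was 0.37 over the members and -0.02 over all tested genes. All 6 tunicamycin libraries lay above all 4 DMSO libraries for 22 members, against 27.0% of all genes, and below them for 4 members, against 23.9%. A rise of at least 1.5-fold was called for 8 members, against 8.97% of all genes. These 8 were Tram1, Spcs3, Sec61g, Ssr3, Sec63, Srp68, Srpr and Sec61a1, and they came from every complex except EMC. Upper-quartile scaling lowered the median of all genes by 0.11 on the log2 scale, and the higher and lower calls over all genes were 3632 and 6934, against 4983 and 5082. Under it 22 members were called higher and 9 lower. The members' median lay 0.38 above that of all genes, a difference that no such scaling can change.

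**Figure D1:**
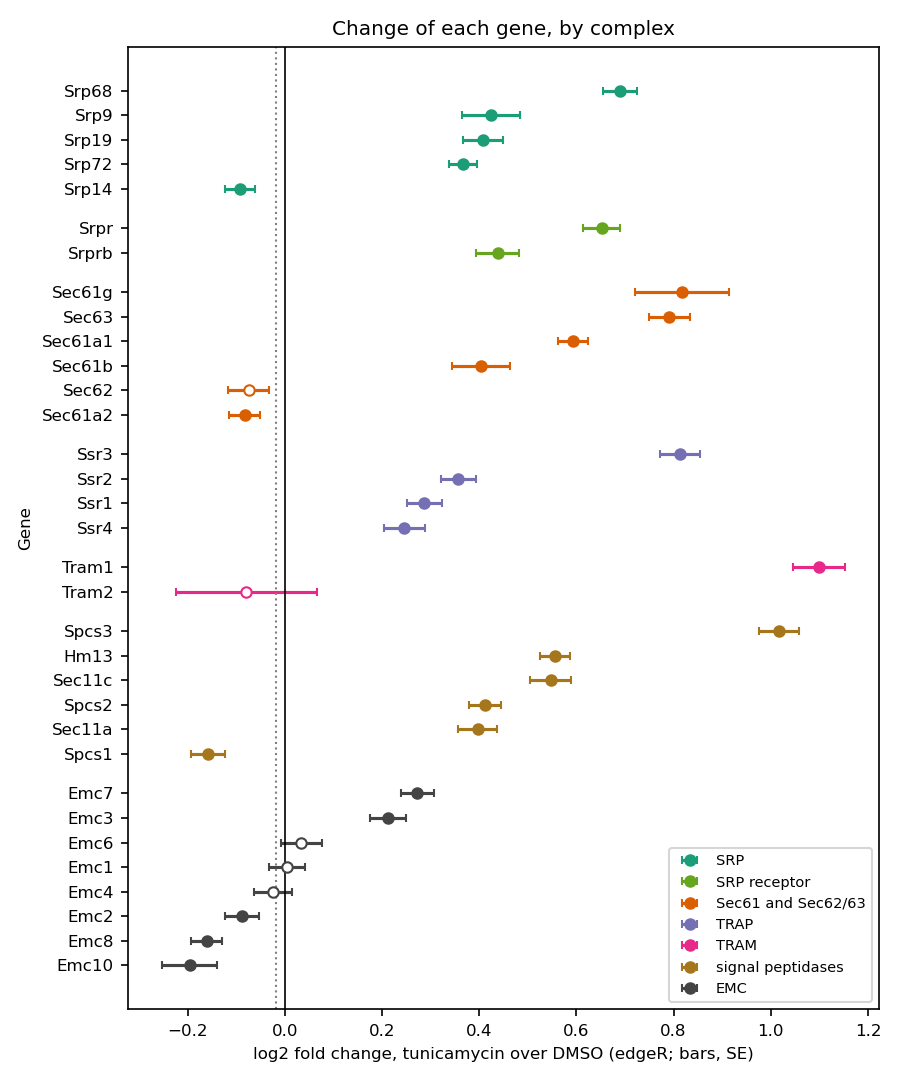
Log2 fold change of each tested member, tunicamycin over DMSO, with its standard error, grouped by complex (colour) and ordered within each complex. Filled points passed an adjusted p of 0.05 in edgeR, open points did not, and the dotted line is the median of all tested genes at -0.02. Tram1 (1.10) and Spcs3 (1.02) lie farthest to the right, and the 8 EMC subunits lie between -0.20 and 0.27.

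**Figure D2:**
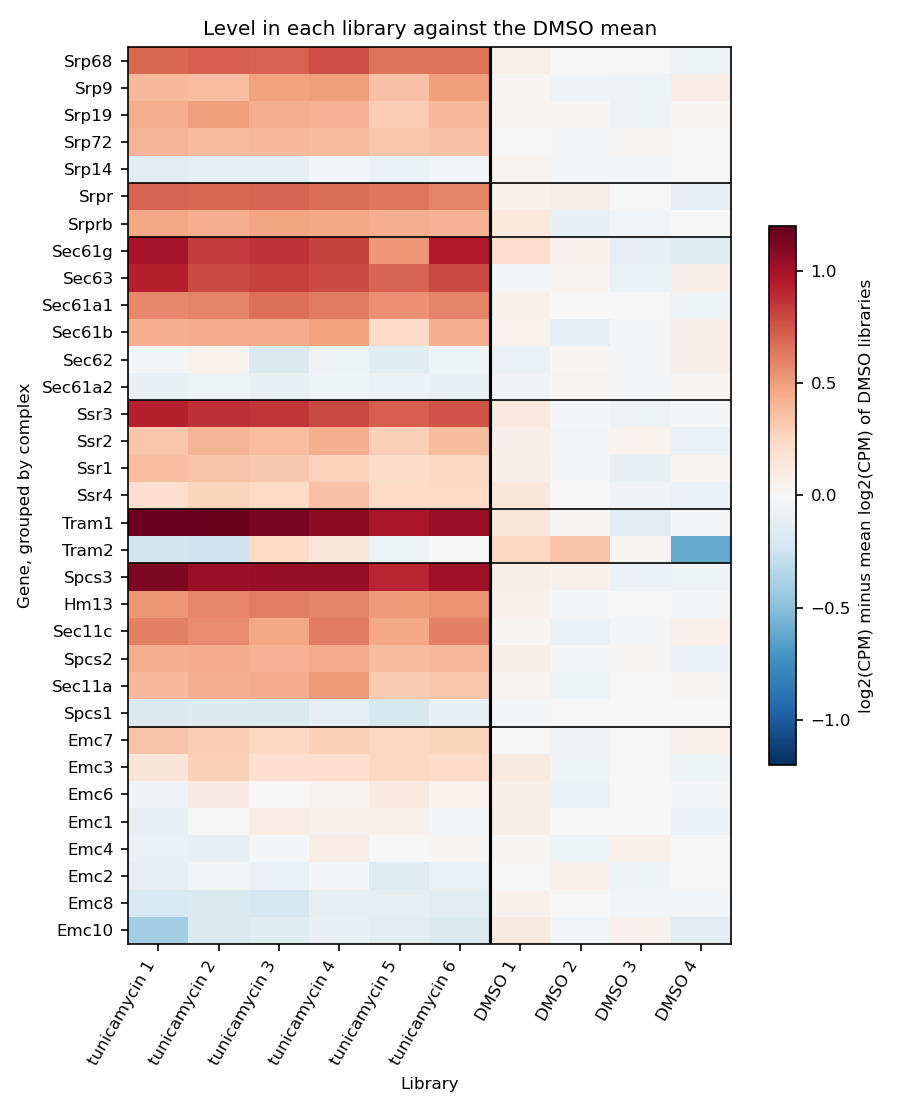
Level of each tested member in each library, as log2(CPM) minus the mean log2(CPM) of the 4 DMSO libraries. The 6 tunicamycin libraries are left of the black line and the 4 DMSO libraries right of it, and the complexes are divided by horizontal lines. The rises are seen in all 6 tunicamycin libraries, while Tram2 varies among the DMSO libraries from 3.22 to 6.25 CPM.

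The protein subunits of SRP were higher with tunicamycin except for 1. SRP has an Alu domain, which delays elongation, and an S domain, which reads the signal sequence. The median log2 fold change of its 5 tested genes was 0.41, with 4 higher and 1 lower. The largest change was that of Srp68 (chr11:116245166-116274217, mm10), which forms the large heterodimer of the S domain with Srp72. Srp68 measured 112 to 122 CPM, median 117, in the tunicamycin libraries, and 75.0, 71.5, 71.8 and 68.8 CPM in the DMSO libraries. The groups did not overlap. It was 1.61-fold higher (log2 0.69 ± 0.03 SE, edgeR adjusted p 1.06e-13). Its partner Srp72 rose as well. It measured 216 to 227 CPM, median 223, with tunicamycin, and 171, 169, 173 and 171 CPM with DMSO, a 1.29-fold rise without overlap (edgeR adjusted p 2.83e-10). Srp19, which helps to assemble the S domain on the RNA of the particle, averaged 55.0 ± 2.45 CPM with tunicamycin and 41.2 ± 1.17 CPM with DMSO, a 1.33-fold rise (edgeR adjusted p 1.1e-08).

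The heterodimer of the Alu domain is formed by Srp9, which rose, and Srp14, which was slightly lower. Srp9 measured 14.6 to 16.2 CPM, median 15.5, in tunicamycin libraries, and 11.6, 11.1, 11.03 and 12.2 CPM in DMSO libraries. It rose 1.34-fold with no overlap (log2 0.42 ± 0.06 SE, edgeR adjusted p 2.08e-06). Of the exonic bases of Srp9 14.1% overlap another gene, so its counts may include reads of that gene. Srp14 measured 124 to 132 CPM, median 126, in tunicamycin libraries, and 138, 134, 134 and 134 CPM in DMSO libraries. Every tunicamycin library was below every DMSO library, but the difference was small: log2 -0.09 ± 0.03 SE, with an edgeR adjusted p of 0.0142. After the trend of fold change with GC content and length was removed, the log2 fold change of Srp14 was 0.03, so its direction is not firm. The difference between the changes of Srp9 and Srp14 was not tested.

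The gene for the signal-binding GTPase of SRP could not be followed under its own name. Mouse chromosome 12 carries 3 annotated copies, Srp54a (chr12:55080262-55115367), Srp54b (chr12:55155104-55189573) and Srp54c (chr12:55230168-55263836). Their coding sequences are each 1515 bases long. Srp54b has 0 differences from Srp54a and Srp54c has 6. The stretch below, coding positions 906 to 965 in the GENCODE M21 transcripts, is shown because it holds 3 of those 6 differences. Capitals mark them.
Srp54a: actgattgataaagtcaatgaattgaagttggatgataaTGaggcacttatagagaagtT
Srp54b: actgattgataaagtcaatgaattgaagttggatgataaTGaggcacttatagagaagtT
Srp54c: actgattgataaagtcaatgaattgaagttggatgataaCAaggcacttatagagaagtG
A read of 50 bases from the coding sequence of Srp54a matches Srp54b over its whole length, and 85.0% of the possible 50-base words of that sequence are also in Srp54c. Srp54a was listed at 0 in every library. A count of 0 allows up to 3 counts, or 0.103 to 0.142 CPM depending on the library, for counting error only. Over all annotated transcripts of Srp54a, 70.5% of the 50-base words are also in other genes, and the remainder is its own. Why that remainder gave no counts either was not tested. How the counting treated reads with several matches is not given in the sources used here, so the 0 is not read as absence. Srp54b was not analysed here. Srp54c, looked at after the 0 of Srp54a was seen, averaged 17.1 ± 1.13 CPM with tunicamycin and 14.0 ± 0.355 CPM with DMSO, a 1.21-fold rise (edgeR adjusted p 0.000316) that may mix reads of all copies.

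Both subunits of the SRP receptor rose. Srpr, the alpha subunit and the GTPase that pairs with Srp54, measured 76.5 to 82.2 CPM, median 81.3, in the tunicamycin libraries, and 52.4, 53.5, 50.5 and 46.8 CPM in the DMSO libraries. The lowest tunicamycin library was well above the highest DMSO library. The rise was 1.57-fold (log2 0.65 ± 0.04 SE, edgeR adjusted p 1.49e-12). Srprb, the membrane-anchored beta subunit, measured 35.2 to 36.7 CPM, median 36.0, with tunicamycin, and 28.7, 24.8, 25.7 and 26.2 CPM with DMSO. It rose 1.35-fold, again without overlap (edgeR adjusted p 1.44e-08). Srpr shares 17.8% of its 50-base words with other genes, and 20.7% of the exonic bases of Srprb overlap another gene, so both values may include reads of those genes.

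The Sec61 channel consists of an alpha subunit that forms the pore and the small beta and gamma subunits. Sec62 and Sec63 join it for proteins that are handed over with the help of BiP, which the J domain of Sec63 recruits. Of these 6 genes, 4 rose, 1 fell and 1 did not pass the test, with a median log2 fold change of 0.50. Sec61a1 (chr6:88503579-88518905), the main alpha subunit, measured 302 to 327 CPM, median 312, with tunicamycin, and 215, 207, 207 and 198 CPM with DMSO. All tunicamycin libraries were higher. The rise was 1.51-fold (log2 0.59 ± 0.03 SE, edgeR adjusted p 2.57e-13).

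Sec61b, the beta subunit, averaged 19.5 ± 1.17 CPM with tunicamycin and 14.7 ± 0.777 CPM with DMSO, a 1.32-fold rise (edgeR adjusted p 3.87e-06). Sec61g, the gamma subunit that clamps the pore, measured 6.97 to 9.64 CPM, median 8.78, with tunicamycin, and 5.64, 5.03, 4.47 and 4.40 CPM with DMSO. The groups did not overlap, although counts were only 97 to 274 per library. It rose 1.76-fold (log2 0.82 ± 0.10 SE, edgeR adjusted p 1.85e-07). Sec61b and Sec61g have near-identical copies elsewhere, with 17.4% and 14.8% of their 50-base words shared, so both levels are uncertain.

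Sec63 rose and Sec62 did not pass the test. Sec63 (chr10:42761496-42832514) measured 125 to 148 CPM, median 133, with tunicamycin, and 76.4, 79.1, 73.1 and 81.0 CPM with DMSO. It was 1.73-fold higher with no overlap (log2 0.79 ± 0.04 SE, edgeR adjusted p 4.03e-13). Sec62 measured 144 to 168 CPM, median 156, with tunicamycin, and 154, 165, 160 and 170 CPM with DMSO. The ranges overlapped, with the lowest tunicamycin libraries below all DMSO libraries, and the log2 difference was -0.08 ± 0.04 SE (edgeR adjusted p 0.127). Sec62 was called lower by edgeR in 6 of the alternatives: log2 -0.19 with upper-quartile scaling, -0.15 and -0.14 with the GC and length trend removed, without and with a replicate block, -0.17 in lane 3 alone, -0.10 without DMSO replicate 1 and -0.10 without tunicamycin replicate 2. The difference between the changes of both genes was not tested.

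The alternative alpha subunit moved apart from the main one. Sec61a2 measured 78.6 to 80.9 CPM, median 79.3, with tunicamycin, and 81.4, 85.3, 82.3 and 85.6 CPM with DMSO. The groups did not overlap, but the log2 difference was only -0.08 ± 0.03 SE (edgeR adjusted p 0.0269). The call was lost in the DESeq2 run made here and when DMSO replicate 2, 3 or 4 was left out. It was also lost with no filter on low counts, on replicates 1 to 4 with or without a replicate block, and in lane 1 alone. Of the exonic bases of Sec61a2 19.9% overlap Nudt5, so its counts and its share below may include reads of that gene. The authors' deposited table lists Sec61a2 as downregulated, with an adjusted p of 0.0134. The ratio of both alpha subunits within a library needs no scaling. Per kilobase of exon, Sec61a2 made up 26.1% to 28.0%, median 27.3%, of the alpha subunit transcripts with tunicamycin, and 35.8%, 37.8%, 36.9% and 38.9% with DMSO. All 6 tunicamycin libraries were below all DMSO libraries. The difference of the log2 ratio, tunicamycin minus DMSO, was -0.68, with p 0.00952 in an exact two-sided permutation test over all 210 splits. This is the smallest p the design allows, and it was 0.0143 after adjustment over 3 pairs of paralogs.

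**Figure D3:**
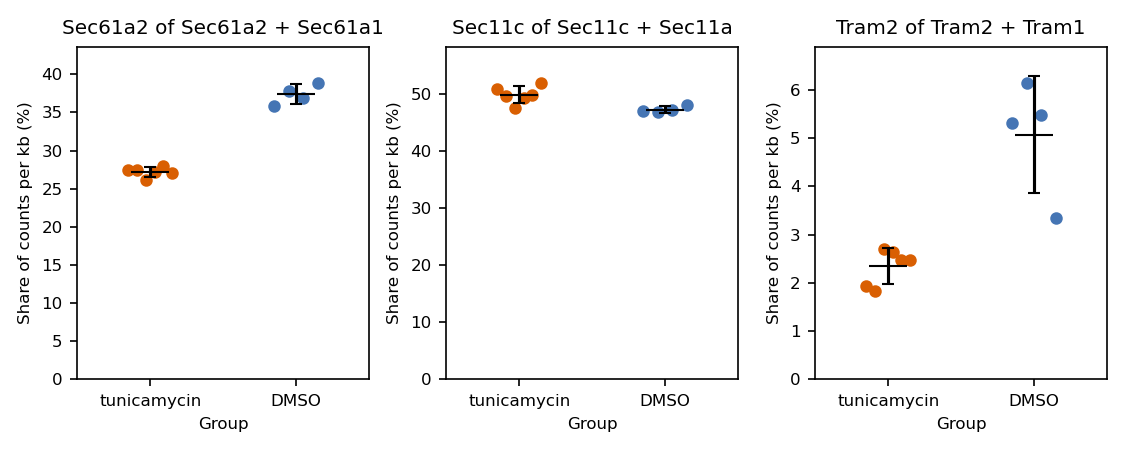
Share of the first gene of each pair in the summed counts per kilobase of exon of both genes, in percent, for Sec61a2 with Sec61a1, Sec11c with Sec11a and Tram2 with Tram1. Points are libraries, tunicamycin left of DMSO, and bars are mean and SD (n = 6 and n = 4). The shares of Sec61a2 and Tram2 are lower in all 6 tunicamycin libraries, while that of Sec11c lies above all DMSO libraries in 5 of 6.

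TRAP, which sits beside Sec61 and helps weak signal sequences to open the channel, rose in all of its 4 subunits, with a median log2 fold change of 0.32. The members differed in size. Ssr3 (chr3:65379655-65392623), the gamma subunit, measured 359 to 415 CPM, median 385, with tunicamycin, and 236, 214, 208 and 214 CPM with DMSO. The groups stood clearly apart. The rise was 1.76-fold (log2 0.81 ± 0.04 SE, edgeR adjusted p 4.3e-13). The other 3 subunits rose less in these data. Ssr2 (beta) averaged 121 ± 4.54 CPM with tunicamycin and 93.8 ± 4.37 CPM with DMSO. Ssr1 (alpha) averaged 237 ± 9.28 CPM with tunicamycin and 193 ± 9.07 CPM with DMSO. Ssr4 (delta) averaged 52.3 ± 1.95 CPM with tunicamycin and 43.8 ± 2.99 CPM with DMSO. Their log2 fold changes were 0.36, 0.29 and 0.25, with edgeR adjusted p-values of 1.86e-08, 3.64e-07 and 2.56e-05. None of the 3 overlapped between groups. The difference between Ssr3 and the other subunits was not tested.

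Tram1 had the largest fold change of the 33 tested members. TRAM proteins span the membrane next to Sec61 and contact the signal sequence of entering chains. Tram1 (chr1:13564698-13589910) measured 88.2 to 106 CPM, median 96.7, with tunicamycin, and 49.4, 45.2, 40.8 and 44.3 CPM with DMSO. Its lowest tunicamycin library stood far above its highest DMSO library. It rose 2.14-fold (log2 1.10 ± 0.05 SE, edgeR adjusted p 1.65e-12). The paralog Tram2 had few counts, 71 to 169 per library. It measured 4.14 to 5.80 CPM, median 4.82, with tunicamycin, and 5.85, 6.25, 4.98 and 3.22 CPM with DMSO. The tunicamycin range lay within the DMSO range, and the log2 difference was -0.08 ± 0.15 SE (edgeR adjusted p 0.654). By sequencing lane it was -0.53 in lane 1, and 0.15 and 0.58 in lanes 2 and 3, which hold 1 DMSO library each. Tram2 made up 1.83% to 2.71%, median 2.48%, of the TRAM transcripts per kilobase with tunicamycin, and 5.33%, 6.16%, 5.48% and 3.33% with DMSO. Every tunicamycin library was below every DMSO library. The difference of the log2 ratio was -1.13 (exact two-sided permutation test, p 0.00952, adjusted 0.0143).

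Among the enzymes that remove and degrade signal peptides, 5 of 6 were higher with tunicamycin and 1 lower, and their median log2 fold change was 0.48. Signal peptidase is built from a catalytic subunit, Sec11a or Sec11c, and the accessory subunits Spcs1, Spcs2 and Spcs3. Spcs3 (chr8:54520433-54529998), whose yeast counterpart is required for cleavage, measured 98.0 to 113 CPM, median 107, with tunicamycin, and 55.1, 54.0, 49.5 and 49.9 CPM with DMSO. No tunicamycin library came near the DMSO range. It rose 2.02-fold (log2 1.02 ± 0.04 SE, edgeR adjusted p 3.5e-15). Spcs2 averaged 119 ± 2.23 CPM with tunicamycin and 88.9 ± 3.68 CPM with DMSO (log2 0.41, edgeR adjusted p 2.9e-10). Spcs1 went the other way. It measured 48.8 to 52.3 CPM, median 49.6, with tunicamycin, and 54.9, 55.9, 56.0 and 55.9 CPM with DMSO. The groups did not overlap, and edgeR gave a log2 fold change of -0.16 ± 0.04 SE with an adjusted p of 0.000471. Of its exonic bases 16.3% overlap Glt8d1, so its counts may include reads of that gene.

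Both catalytic subunits rose. Sec11c measured 87.2 to 97.4 CPM, median 94.9, with tunicamycin, and 64.2, 60.1, 62.8 and 66.1 CPM with DMSO, a 1.46-fold rise (edgeR adjusted p 1.5e-10). Sec11a measured 59.8 to 68.2 CPM, median 63.9, with tunicamycin, and 49.1, 46.4, 47.9 and 48.5 CPM with DMSO, a 1.32-fold rise (edgeR adjusted p 1.2e-08). Neither gene overlapped between groups. Per kilobase, Sec11c was 47.5% to 51.9%, median 49.7%, of both catalytic transcripts with tunicamycin, and 47.0%, 46.7%, 47.0% and 48.0% with DMSO. The difference of the log2 ratio was 0.15 (exact two-sided permutation test, p 0.0190, also 0.0190 after adjustment), a small shift with 5 of 6 libraries above all DMSO libraries. Hm13, the signal peptide peptidase that cuts the released peptide inside the membrane, averaged 209.9 ± 6.19 CPM with tunicamycin and 142 ± 3.67 CPM with DMSO. It rose 1.47-fold without overlap (log2 0.56 ± 0.03 SE, edgeR adjusted p 8.91e-13).

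The EMC subunits changed little and in both directions. Of the 8 tested subunits, 2 rose (25.0%), 3 fell (37.5%) and 3 did not pass the test, and the median log2 fold change was -0.01. Over all tested genes 31.8% rose and 32.5% fell, with a median of -0.02, so EMC stood near that background. The median was 0.41 for the other 25 members, of which 20 rose and 3 fell. All 8 lay between -0.20 and 0.27, and none reached 1.5-fold. With the GC and length trend removed 4 were called higher and 3 lower, and with upper-quartile scaling 2 higher and 5 lower. No test was made of the difference between these groups of genes. Emc3, which forms the insertase core in the membrane with Emc6, measured 104 to 114 CPM, median 109, with tunicamycin, and 101, 89.8, 93.2 and 90.2 CPM with DMSO. The groups were close but did not overlap, a 1.16-fold rise (edgeR adjusted p 3.29e-05). Emc7, a subunit with a domain in the ER lumen, measured 130.1 to 139 CPM, median 133, with tunicamycin, and 109, 106, 109 and 114 CPM with DMSO. It rose 1.21-fold without overlap (log2 0.27, edgeR adjusted p 2.69e-07).

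Of the 3 EMC subunits that fell, Emc8 was the only one without overlap. Emc8, which caps the complex on the cytosolic side, measured 77.2 to 81.8 CPM, median 80.0, with tunicamycin, and 92.1, 89.1, 86.6 and 86.9 CPM with DMSO (log2 -0.16, edgeR adjusted p 0.000168). Emc10, a lumenal subunit, measured 139 to 175 CPM, median 167, with tunicamycin, and 201, 182, 193 and 171 CPM with DMSO (log2 -0.20 ± 0.06 SE, edgeR adjusted p 0.00706). Its lowest DMSO library lay within the tunicamycin range. With the GC and length trend removed and a replicate block the log2 fold change was -0.096 and the call was lost (edgeR adjusted p 0.0560). By lane it was -0.32 in lane 1, and -0.19 and -0.03 in lanes 2 and 3 against 1 DMSO library each. Emc2, the cytosolic scaffold that Emc8 binds, averaged 78.8 ± 2.85 CPM with tunicamycin and 83.2 ± 2.44 CPM with DMSO (log2 -0.09, edgeR adjusted p 0.0299). This call was lost in the DESeq2 run made here and when DMSO replicate 2 or 4 or tunicamycin replicate 5 was left out. It was also lost with no filter on low counts, on replicates 1 to 4 with or without a replicate block, and in lane 1 alone. Emc1, the largest subunit, averaged 88.7 ± 3.94 CPM with tunicamycin and 87.9 ± 3.72 CPM with DMSO. Emc4 averaged 66.1 ± 3.16 CPM with tunicamycin and 66.8 ± 2.36 CPM with DMSO, and Emc6 averaged 42.3 ± 1.77 CPM with tunicamycin and 41.1 ± 1.75 CPM with DMSO. The edgeR adjusted p-values of Emc1, Emc4 and Emc6 were 0.925, 0.611 and 0.5, and 30.9% of the exonic bases of Emc1 overlap other genes.

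Levels between genes were compared per length, over the DMSO libraries, in TPM (counts per summed exon length, scaled to a total of 1000000). Srp14 was highest at 451 ± 8.64 TPM. Emc10 and Emc4 followed at 256 ± 19.0 and 254 ± 7.61 TPM, and Ssr3 and Ssr2 at 209 ± 12.3 and 201 ± 9.69 TPM. The genes of each of these pairs did not differ beyond their spread. The lowest were Tram2 at 3.05 ± 0.83 TPM, Sec61g at 7.92 ± 0.983 TPM and Srp9 at 8.28 ± 0.367 TPM, of which the last pair did not differ beyond its spread. Within the channel, Sec61a1 stood at 123 ± 4.76 TPM and Sec61b at 46.2 ± 2.19 TPM, but the levels of Sec61b and Sec61g are uncertain because of their copies. Those of Srp9, Emc4 and Ssr2 are uncertain too, as 14.1%, 14.5% and 12.8% of their exonic bases overlap other genes. Across the 33 members, Spearman's rho of this level with the log2 fold change was -0.36, and across 15620 tested genes it was -0.00. These are descriptions across genes that share libraries, and genes are not independent replicates.

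**Figure D4:**
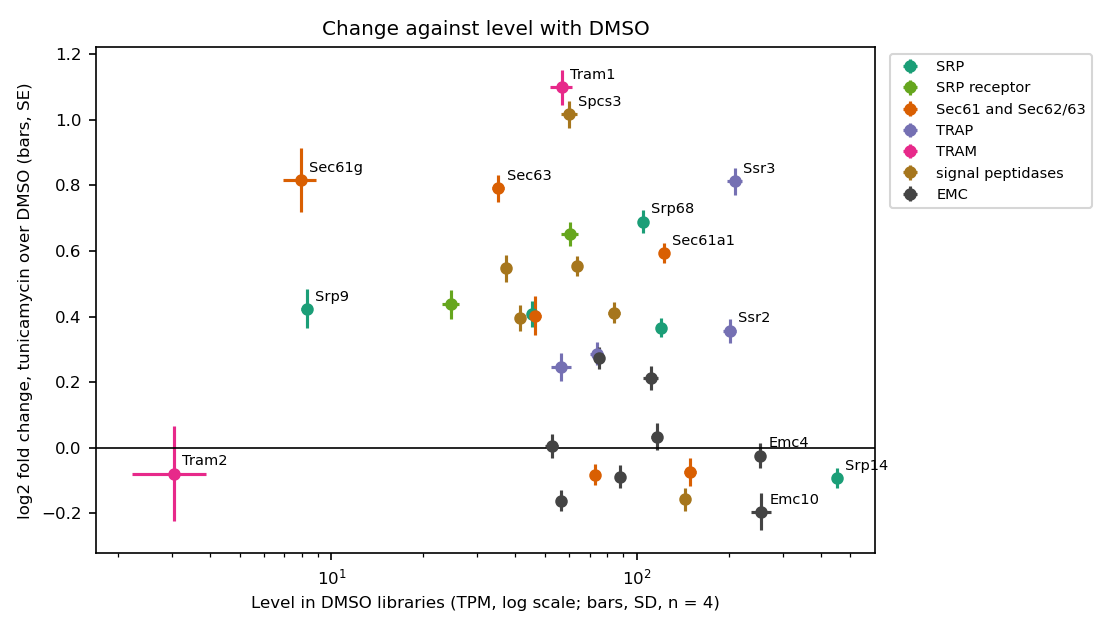
Log2 fold change of each tested member, tunicamycin over DMSO (bars, SE), against its level in DMSO libraries in TPM on a log axis (bars, SD, n = 4), coloured by complex. The genes with the highest level, Srp14 (451 TPM), Emc10 (256 TPM) and Emc4 (254 TPM), lie between -0.20 and -0.02 on the vertical axis, and Tram1 and Spcs3 lie highest, at middle levels.

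Genes related to this machinery by function or family, but not part of the set, were counted as a second list of 24. Of these, 7 rose, 10 fell and 7 did not pass the test, against 31.8% and 32.5% of all genes, and their median log2 fold change was -0.04. The 3 proteins that bind ribosomes at the ER membrane all rose: Lrrc59 (log2 0.56 ± 0.03 SE), Rrbp1 (0.55 ± 0.04) and Ktn1 (0.24 ± 0.05), with edgeR adjusted p-values of 1.06e-12, 9.22e-12 and 0.000121. Among the 6 genes of the translocon for proteins with many membrane spans, Ccdc47 rose (log2 0.44 ± 0.03 SE, edgeR adjusted p 1.02e-10) and 3 fell, namely Wdr83os, Tmem147 and Tmco1 (log2 -0.41, -0.19 and -0.11). Wdr83os had at most 214 counts per library and 52.3% of its exonic bases overlap Wdr83, so its value is uncertain. Tail-anchored protein insertion was split. Camlg, which forms the membrane receptor of that pathway with Wrb, rose (log2 0.45 ± 0.04 SE, edgeR adjusted p 8.62e-10), while Wrb fell (log2 -0.26, edgeR adjusted p 9.61e-06), with 11.6% of its exonic bases in an overlap. Get4 and Ubl4a also rose, Bag6 and Sgta fell, and Asna1 did not pass the test. The 3 relatives of Hm13, Sppl2a, Sppl2b and Sppl3, all fell, with log2 fold changes of -0.10, -0.23 and -0.15. Of the further EMC subunits Emc9 fell (log2 -0.28) and Mmgt1 did not pass the test. Naca and Btf3 of the nascent chain complex and Tmem208 did not pass it either.

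Promoters were searched for the elements bound by the transcription factors of the unfolded protein response. RefSeq promoters on GRCm38.p6, from 250 bases before to 50 after the start, were matched for 25 of the 34 members. Those without one were Srp19, Srp68, Sec61a1, Ssr2, Tram1, Spcs3, Sec11c, Emc2 and Emc8, among them 4 of the 8 members that rose at least 1.5-fold. On either strand, none of the 25 held the ER stress response element (CCAAT and CCACG with 9 free bases between them), its second form (ATTGG and CCACG with 1 free base between them), the core TGACGTGG bound by XBP1 and ATF6, or the composite TGATGNAA bound by ATF4 with C/EBP proteins. These occurred in 0.119%, 0.0365%, 0.676% and 3.97% of 32851 promoters. Among the stress markers, Hspa5 held the first element, and Herpud1 held its second form and the composite. Dnajb9, which was 4.98-fold higher, held none of them. No match was found for Ddit3 or Xbp1, but whether each had a matched promoter is not given here. A gene can thus respond without an exact match in this window, so the missing matches of the members say little. The shorter ACGTGG, the end of the XBP1 core, was added after the data were seen. It was found in 6 of 25 (24.0%), namely Hm13, Sec63, Spcs1, Srprb, Ssr1 and Ssr3, and in 8.31% of all promoters. Of the related genes described above, 19 had a matched promoter. The short match was found in 6 of these 19 genes (31.6%), of which 3 rose and 3 fell. Lrrc59, among those that rose, held the full core TGACGTGG, and no other related gene held any of the longer elements. A gene counts here if any of its promoters holds the match, while the 8.31% counts single promoters. The shares of genes are therefore not on the same footing as the 8.31%. The stretches below are shown for 4 of the 6 members because their matches lie upstream of the start in both annotations. The promoter of Hspa5 is shown for the full element, which lies upstream of the RefSeq start. Ssr1 has a second match nearer the start, 26 to 21 bases before it, which is not shown. Capitals mark the match (CCACGT is ACGTGG read from the other strand), and each is written 5′ to 3′ on the strand of its gene.
Sec63, chr10:42761454-42761495, plus strand: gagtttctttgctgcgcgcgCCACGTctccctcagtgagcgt
Ssr1, chr13:37994256-37994301, minus strand: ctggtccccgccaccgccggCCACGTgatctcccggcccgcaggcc
Ssr3, chr3:65392718-65392763, minus strand: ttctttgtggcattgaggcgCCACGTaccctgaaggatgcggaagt
Spcs1, chr14:31001701-31001746, minus strand: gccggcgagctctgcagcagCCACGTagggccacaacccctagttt
Hspa5, chr2:34772005-34772063, plus strand: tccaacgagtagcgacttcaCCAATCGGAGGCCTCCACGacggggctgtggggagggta
Of the 6 members with the short match, 5 rose (Hm13, Sec63, Srprb, Ssr1 and Ssr3) and Spcs1 fell. Among all tested members 66.7% rose, and among all tested genes 31.8%. Whether the match goes with the rise was not tested. A match is a description of the letters in this window, and no binding was measured.

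In the authors' deposited tables, which list 4697 upregulated and 4814 downregulated genes, 22 members stood as upregulated and 5 as downregulated. All 22 and all 5 were called in the same direction here. The sixth member called lower here, Emc2, was in neither of the authors' deposited tables. With sequencing lane as a term in the fit, 22 members were called higher and 6 lower. Within lanes the median log2 fold change of the members was 0.41 in lane 1, and 0.36 and 0.32 in lanes 2 and 3. Lanes 2 and 3 hold 1 DMSO library each, so calls within them assume that it varies like the tunicamycin libraries. Ssr4 was the only member called higher that lost its call in 1 of the 23 alternative analyses, lane 1 alone. None of the 6 members called lower kept its call in all 23.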

How the data were processed

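Polyadenylated RNA was sequenced from 6 tunicamycin and 4 DMSO libraries. Libraries were made with a kit that does not mark strand and read as 50-base single ends, per the labels' protocols. Per the submitters' processing notes, the build was mm10 and the tools included STAR 2.5.2b, Subread 1.5.1 with featureCounts, FastQC 0.11.5 and DESeq2. Which annotation was used, whether strand was set and how reads with more than 1 match were treated is not given in the sources used here. Whole-number counts per gene, not normalized, were deposited by the authors, 21055289 to 29234887 per library. Further deposited tables by the authors list changed genes with a log2 fold change, a p-value with its adjusted form, and a normalized signal per library that equalled the deposited counts over 1 factor per library.

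Names, positions and exon lengths came from GENCODE M21 (GRCm38, another name of mm10), which matched 48349 of 48709 identifiers. The unmatched 360 held 0.046% of counts, and no row lacked a gene. Counts were tested with edgeR 4.0.16 in R 4.3.3 (quasi-likelihood F test, robust fit, TMM, filterByExpr, all 10 libraries, no covariates, Benjamini-Hochberg over 15660 genes, call at an adjusted p under 0.05). Each SE is the size of the log2 fold change over the square root of F. CPM are counts over the library total, given as mean ± SD, and TPM use summed exon length, which understates genes with many isoforms. Ratios of 3 paralog pairs were tested with exact permutation tests (scipy 1.17.1). No library repeated another (chi-square per degree of freedom 2.18 to 10.5). The p-values cover only the spread among these libraries, and that spread may be technical.

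Every member is named. The rule for the related list names the 4 called genes with the largest change (Lrrc59, Rrbp1, Camlg and Ccdc47) and the exceptions of each list. The other related genes named stand for counts of 5 or fewer and were chosen after their values were seen. Members, lists and tests were chosen with earlier results of these data known. A gene is called uncertain where at least 10% of its exonic bases overlap another gene, or where other genes hold a share of its 50-base words that exceeds this overlap by 10 percentage points. This holds for 12 members: Srp54a, Srpr, Sec61b and Sec61g by copies, and Srp9, Srprb, Sec61a2, Sec62, Ssr2, Spcs1, Emc1 and Emc4 by overlap. The alternatives were DESeq2 1.42.0, other scalings and filters, sequencing lane (as named with the deposited counts), a GC and length correction, a replicate block and leaving out each library. Scripts were tested on simulated data.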

Additional observations from a re-analysis of the deposited data

Results flagged for a closer look

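In 5 of 72 sets of libraries tested (33 members and 3 paralog ratios, in each group), the outermost library stood apart from the others by Dixon's criterion. Chance flags about 1 in 20 such sets. Emc10 was 139 CPM in tunicamycin replicate 1, where the other tunicamycin libraries held 165 to 175 CPM, and Sec61b was 17.2 CPM in tunicamycin replicate 5, where the others held 19.8 to 20.5 CPM. Srp14 was 138 CPM in DMSO replicate 1, with 134 CPM in each of the others. Spcs1 was 54.9 CPM in DMSO replicate 1, with 55.9 to 56.0 CPM in the others. Srp19 was 39.4 CPM in DMSO replicate 3, with 41.6 to 42.0 CPM in the others.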

How the results depend on the processing

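The 22 members called higher numbered 21 to 24 over all alternatives and 22 in each analysis that left out 1 library. The 6 called lower numbered 3 with no filter on low counts, 3 in lane 1 alone, 3 in lane 2 alone, 2 in lane 3 alone and 4 to 7 when 1 library was left out. Lanes 2 and 3 hold 1 DMSO library each, assumed to vary like the others, so calls lost there say little. The members' median of 0.37 was 0.25 with upper-quartile scaling, 0.32 in lane 3 alone and 0.36 to 0.38 when 1 library was left out. Leaving out 1 library gave 4796 to 4963 higher and 4726 to 4997 lower genes, and log2 ratios of -0.71 to -0.64 (Sec61a2 to Sec61a1), 0.12 to 0.18 (Sec11c to Sec11a) and -1.33 to -1.02 (Tram2 to Tram1). The cause of these changes was not tested.

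No pairing of libraries by replicate numbers 1 to 4 was seen. Same-number correlations of deviations were -0.22 to 0.01, and 0 of 4 DMSO libraries correlated best with their own number. These correlations cannot tell whether libraries of the same number share a culture. With the replicate block 22 members were higher and 4 lower, as without it on the same libraries, and genes numbered 4416 higher and 4398 lower, against 4699 and 4758. The 3 paralog ratios were -0.69, 0.12 and -1.18 within the block, each with a p of 0.125 in an exact permutation test, the smallest that 16 splits allow.

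Some directions turned. With the GC and length trend removed, without and with the replicate block, Srp14 was at 0.027 and 0.022, Emc1 at -0.039 and -0.042, Emc4 at 0.12 and 0.13 and the EMC median at 0.042 and 0.040. Upper-quartile scaling gave -0.11 for Emc1 and -0.081 for Emc6. By lane, Sec62 and Emc1 were at 0.046 and -0.075 in lane 1, Tram2 and Emc6 at 0.15 and -0.0078 in lane 2, and Tram2, Emc4 and the EMC median at 0.58, 0.0056 and 0.045 in lane 3. On replicates 1 to 4, Emc1 was at -0.0015 with no replicate block and -0.0024 with it. Leaving out 1 library gave -0.011 to 0.025 for Emc1, -0.048 to 0.0027 for Emc4 and -0.23 to 0.043 for Tram2. Low counts limit Tram2 and Sec61g most.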

Other observations

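The 6 members with under 2000 bases of exon, Srp14, Sec61b, Ssr2, Spcs1, Emc4 and Emc6, had a median log2 fold change of 0.00, with 2 higher and 2 lower. The 27 members of 2000 bases or more had a median of 0.41, with 20 higher and 4 lower. Spearman's rho of exon length with the log2 fold change was 0.14 over the 33 members and 0.12 over 15620 tested genes, and that of GC content was -0.19 over the members and -0.14 over those genes. The split by length was made on annotated exons and was not tested.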
